A study of Mus musculus with 8 samples.

Results

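The genes of the insulin-like growth factor (IGF) axis were examined in nuclei of cortical GABAergic neurons from mice that carried, or did not carry, a mutant thyroid hormone receptor. They were taken by symbol, and all 10 were found among the 55450 genes of the count tables: the ligand gene Igf1, the receptor genes Igf1r, Insr and Igf2r, the adaptor genes Irs1 and Irs2, and the binding protein genes Igfbp2, Igfbp3, Igfbp5 and Igfbp6. Each library held nuclear RNA from the frozen cortex of 1 juvenile mouse, after sorting of nuclei by a fluorescent reporter. In both groups Cre recombinase, driven in GABAergic neurons, switched on the loxP-controlled reporter. Controls were Thra+/+. Mutants were Thra+/AMI, and in them Cre also switched on an allele of Thra whose product is a dominant-negative form of the thyroid hormone receptor. The Cre driver is not named in the labels, and the nuclei of all GABAergic classes were pooled. The tables of the mutants labelled 7 and 10 held the same counts in 55220 of 55220 genes compared, which is a difference smaller than sampling noise. Both tables therefore count as 1 sample, called mutant 7, and which animal gave them is not known. The comparison was thus between 4 controls, numbered 1 to 4, and 3 mutants, numbered 6, 7 and 8.

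The protein IGF1 acts mainly through IGF1R, a tyrosine kinase receptor on the cell surface that is closely related to the insulin receptor. Both receptors phosphorylate the adaptors IRS1 and IRS2, from which the PI3K, AKT and mTOR branch and the RAS and ERK branch are reached. Secreted binding proteins hold IGFs outside the cell and set how much is free to bind, and IGF2R clears IGF2 and carries lysosomal enzymes. In the cortex Igf1 is known from subsets of interneurons, among them VIP neurons, and from microglia, and it supports growth and the formation of synapses.

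Total counts per library ran from 10747169 to 13804734. Levels are given in CPM, counts scaled to a common library size after TMM normalization of the library sizes. Of 16448 tested genes, 1549 were called, meaning that the Benjamini-Hochberg adjusted p of the quasi-likelihood test of edgeR was below 0.05, which is 9.42%. The GABAergic markers Gad1, Gad2, Slc32a1, Dlx5 and Erbb4 were all above 14 CPM in every library, and 0 of 5 were called by edgeR or DESeq2 or had an unadjusted p under 0.05 in edgeR, while Dlx1 was listed at 0. Thra averaged 114 ± 9.35 CPM over the controls (SD, n = 4) and 87.5 ± 9.39 CPM over the mutants (SD, n = 3), without overlap and with an edgeR adjusted p of 0.0543, and it was called lower in 6 of 17 alternatives, DESeq2 among them (adjusted p 0.0284). Counts add up both alleles of Thra, so this value does not measure the mutant allele. Control 4 and mutant 8 had 4 and 3 reads of 4 Y-linked genes, against 5094 to 6644 in the other libraries. Controls 1 and 4 differed by the genomic length of genes: the median log2 ratio of control 4 to control 1 was -0.44 for tested genes under 10 kb and 0.70 for those over 100 kb. The labels name 1 cortex per library but no litter or batch, and p-values measure the spread between these samples.

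The comparison asked which genes of the IGF axis differ in level between neurons with and without the mutant receptor. Igfbp5 and Igfbp3 rose, to 3.39 and 2.79 times the mean of the controls, and Irs1 fell to 0.543 times that mean. The other 7 genes did not pass the test. The count of 3 called genes of 10 (30.0%) stands beside 9.42% of all tested genes. The 10 genes were chosen with earlier results of these data known, so this share and those that follow are description only. Higher in mutants were 2 of 10, beside 4.63% of all tested genes, and lower was 1 of 10, beside 4.78%. An unadjusted p under 0.05 was reached by 6 of 10, beside 22.5%, and 5 of 10 had groups that did not overlap in CPM, beside 22.0% of all tested genes. The median log2 fold change of the 10 genes was -0.28 and that of all tested genes was -0.01, with 7 of the 10 genes below 0. With an offset for genomic length 6 of the 10 genes were called, Igf1, Igf1r and Insr being added, all lower in mutants, beside 16.7% of all tested genes under that offset.

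**Figure D1:**
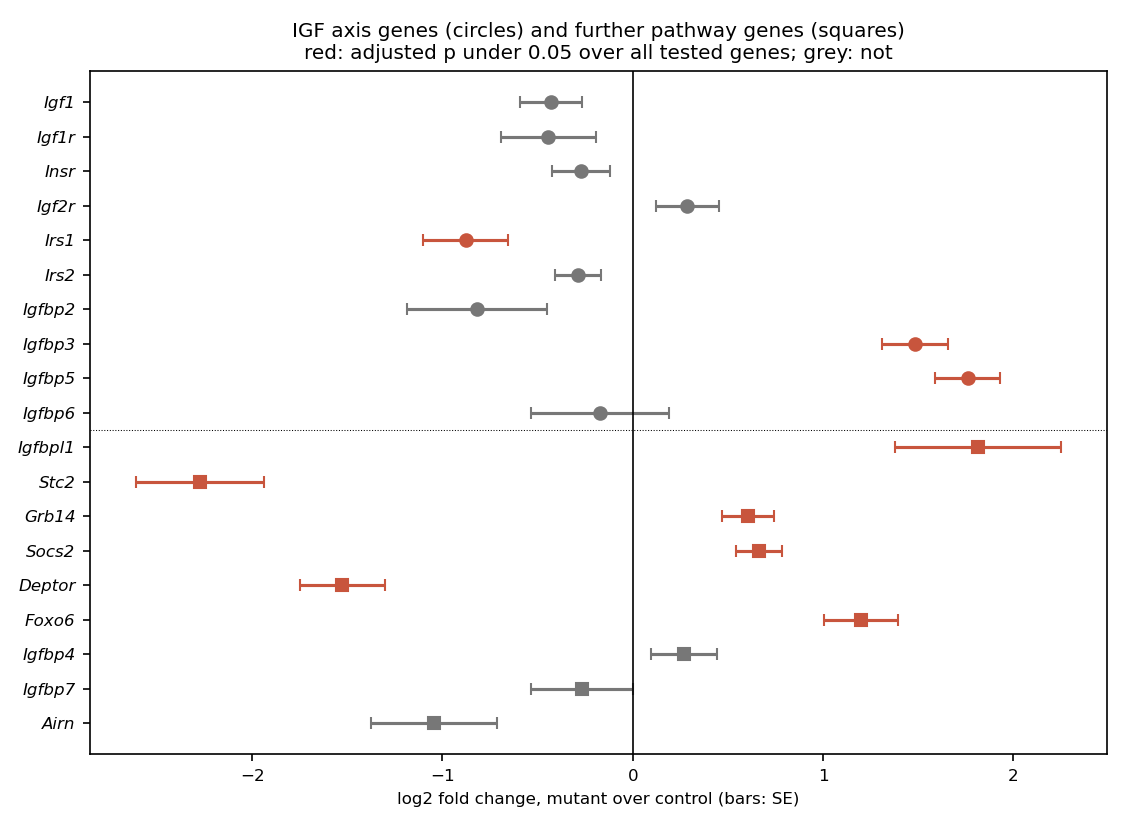
Log2 fold changes of mutant over control (x axis, bars are SE) for the 10 IGF axis genes (circles) and for 9 further genes of the pathway (squares), with called genes in red. Igfbp3 and Igfbp5 lie above 1, Irs1 lies at -0.88, and the other 7 IGF axis genes lie between -0.82 and 0.29.

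The ligand gene Igf1 (chromosome 10, 87858265 to 87937042, plus strand, GRCm38) was at 86.1, 114, 104 and 145 CPM in controls 1 to 4. In mutants 6, 7 and 8 it was at 88.7, 89.1 and 72.4 CPM. Control 1 lay among the mutants and the other 3 controls lay above all of them, so the groups overlapped. The log2 fold change was -0.43 (SE 0.16), which did not pass over all tested genes in edgeR (adjusted p 0.129). Its call varied with the libraries in the fit. Without control 1 Igf1 was called lower (-0.53, edgeR adjusted p 0.0170), and so it was without controls 1 and 4 (-0.39, 0.00785) and with the genomic length offset (-0.43, 0.0126). In the fit without control 4 it was not called (-0.28, edgeR adjusted p 0.146), nor was it without control 4 and mutant 8 (-0.19, 0.468). The antisense gene Igf1os, which overlaps the start of Igf1, had 2 to 13 reads per library and shares no exon sequence with it. Igf2, the second ligand gene, was listed at 0 in every library. Of its exon sequence 62.8% is shared with another annotated gene, Gm49394, which was itself listed at 0 in every library. Insrr and Htra1 were also listed at 0. Exact zeros also stood at Dlx1, Gfap and P2ry12, and since the handling of reads by the counting is not given, a listed 0 is not read here as absence of expression. The insulin genes Ins1 and Ins2 had at most 1 read per library.

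**Figure D2:**
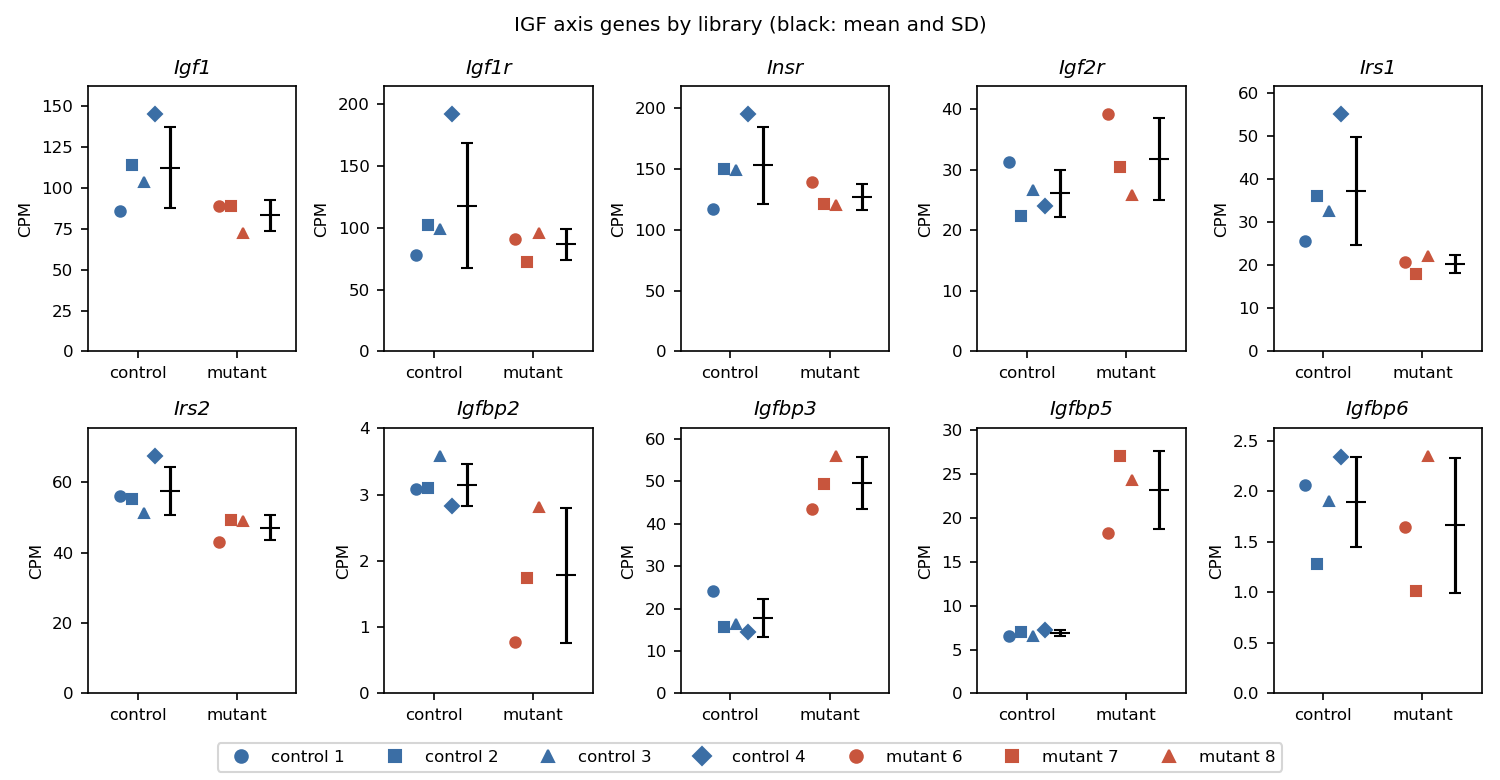
Level in CPM (y axis, from 0) of each IGF axis gene in the 4 control and 3 mutant libraries, with the mean and SD in black. The mutant points of Igfbp3 and Igfbp5 all lie above the controls, those of Irs1 all lie below, and control 4 is the highest library for Igf1, Igf1r, Insr, Irs1 and Irs2.

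Among the receptor genes, none was called. The IGF1 receptor gene Igf1r, the longest of the set at 280.8 kb, was at 78.0, 102, 99.0 and 192 CPM in controls 1 to 4 and at 91.0, 72.8 and 95.95 CPM in mutants 6, 7 and 8. Control 4 was the highest library by far, and the other 3 controls spanned the range of the mutants except mutant 7, the lowest. The log2 fold change was -0.44 (SE 0.25, edgeR adjusted p 0.330), and it shrank to -0.11 without control 4. The log2 ratio of control 4 to control 1 was 1.29 for Igf1r, beside the median of 0.70 for all tested genes over 100 kb.

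The insulin receptor gene Insr was at 117, 149.8, 149 and 195 CPM in controls 1 to 4. In mutants 6, 7 and 8 it was at 139, 121 and 120.04 CPM. Here too control 4 was highest and control 1 lowest, with the mutants between them. The log2 fold change was -0.27 (SE 0.15, edgeR adjusted p 0.337). It was -0.13 without control 4, and with the genomic length offset both Insr (-0.27, adjusted p 0.0369) and Igf1r (-0.41, adjusted p 0.0366) were called lower. Within a library, the level of Igf1r per kilobase of exons was 0.543 to 0.560 times that of Insr in controls 1 to 3 and 0.807 times in control 4. In mutants this ratio was 0.493 to 0.654, which covers the range of controls 1 to 3.

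The gene of the clearance receptor, Igf2r, was the only receptor gene with a positive difference. It was at 31.3, 22.4, 26.6 and 24.0 CPM in controls 1 to 4 and at 39.1, 30.4 and 25.9 CPM in mutants 6, 7 and 8. The groups overlapped, and the log2 fold change of 0.29 (SE 0.17) did not pass (edgeR adjusted p 0.351). Without mutant 6 it was 0.11 (edgeR adjusted p 0.832). Igf2r is imprinted in many mouse tissues through Airn, a long RNA that starts inside Igf2r on the opposite strand. Airn averaged 15.2 ± 7.01 CPM over the controls (SD, n = 4) and 7.34 ± 1.87 CPM over the mutants (SD, n = 3), which differ by -1.04 on the log2 scale (SE 0.33, adjusted p 0.0724 by edgeR). Its groups overlapped, and it was called lower in 5 alternatives, among them the fits without control 1 (-1.25, adjusted p 0.00535) and with the genomic length offset (-1.01, adjusted p 0.00879). The exons of both genes share no base, but the labels name no step that keeps strand, so reads of either RNA in the shared span cannot be told apart by strand.

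Of the adaptor genes, Irs1 fell. This gene (chromosome 1, 82233101 to 82291416, minus strand) encodes the adaptor that links IGF1R and the insulin receptor to PI3K. It was at 25.5, 35.97, 32.5 and 55.0 CPM in controls 1 to 4 and at 20.7, 17.99 and 22.1 CPM in mutants 6, 7 and 8. Every mutant was below every control, and the gap between control 1 and mutant 8 was the narrowest. Controls 1 and 4 themselves differed by a log2 ratio of 1.09 (control 4 over control 1) for Irs1, which spans 58.3 kb. The log2 fold change was -0.88 (SE 0.22), with an edgeR adjusted p of 0.0268. The call was lost without control 2 (-0.90, adjusted p 0.0640), mutant 6 (-0.89, 0.102), mutant 7 (-0.80, 0.139) or mutant 8 (-0.94, 0.0831), and it held without control 4 (-0.63, edgeR adjusted p 0.00987), the highest library. Of the exon sequence of Irs1, 30.9% is shared with Gm9747 on the opposite strand, which was listed at 0 in every library.

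The second adaptor gene, Irs2, was at 56.2, 55.3, 51.2 and 67.3 CPM in controls 1 to 4 and at 42.95, 49.3 and 48.95 CPM in mutants 6, 7 and 8. The groups did not overlap, but the log2 fold change of -0.29 (SE 0.12) did not pass (edgeR adjusted p 0.180). Its neighbour on the opposite strand, 9530052E02Rik, covers 2.6% of the exons of Irs2 and differed by -0.57 on the log2 scale (SE 0.20, adjusted p 0.106 by edgeR). Within a library, Irs1 per kilobase of exons was 0.314, 0.450, 0.439 and 0.565 times the level of Irs2 in controls 1 to 4. In mutants 6, 7 and 8 this ratio was 0.333, 0.252 and 0.312, so it overlapped with that of control 1.

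The binding protein genes held the largest differences of the axis. The promoters of the 3 called genes are printed here because these are the genes that moved. Each line gives the bases before the gene start, 5′ to 3′ on the gene's own strand (minus in all 3), from RefSeq on GRCm38.p6, ending before the annotated start of the gene. Capitals mark a TATA word (TATAAA, or the related word written as TATATA, or the further one written as TATTTA, searched on the gene strand within the last 60 bases before the RefSeq start) or the GC box GGGCGG on either strand.
Igfbp3 chr11:7213924-7214173: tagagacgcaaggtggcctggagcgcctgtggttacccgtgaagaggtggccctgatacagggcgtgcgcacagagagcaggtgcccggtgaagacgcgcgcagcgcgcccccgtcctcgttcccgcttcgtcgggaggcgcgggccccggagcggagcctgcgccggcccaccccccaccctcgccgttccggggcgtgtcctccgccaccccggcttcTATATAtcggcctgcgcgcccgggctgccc
Igfbp5 chr1:72874885-72875115: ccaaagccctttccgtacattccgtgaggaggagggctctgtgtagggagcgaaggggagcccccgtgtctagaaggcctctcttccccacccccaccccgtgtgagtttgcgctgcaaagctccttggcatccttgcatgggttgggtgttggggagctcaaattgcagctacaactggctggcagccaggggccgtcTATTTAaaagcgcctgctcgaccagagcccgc
Irs1 chr1:82291440-82291689: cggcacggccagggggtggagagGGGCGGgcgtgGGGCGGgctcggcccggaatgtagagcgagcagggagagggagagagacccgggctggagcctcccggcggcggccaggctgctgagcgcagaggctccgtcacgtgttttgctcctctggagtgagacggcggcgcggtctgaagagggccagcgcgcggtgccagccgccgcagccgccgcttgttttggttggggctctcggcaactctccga

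The TATA word begins 30 bases before the end of the Igfbp3 line and 32 bases before the end of the Igfbp5 line. Such a word was found in 2 of the 9 genes of the axis with a promoter sequence, those of Igfbp3 and Igfbp5, and in 5.35% of 32851 promoters. The Irs1 line has 2 GC boxes and no TATA word, and GC boxes were found in 5 of 9 genes and 32.7% of all promoters. CG dinucleotides numbered 32 in the Igfbp3 line, 10 in the Igfbp5 line and 28 in the Irs1 line, where the median over all promoters was 6 in 250 bases. The sequence AGGTCA, the half-site that thyroid hormone receptors and other nuclear receptors recognise, was searched on both strands in the 250 bases before the RefSeq start. It was found in Igf1, Igf1r and Igf2r, none of them called in the main test, and in 14.0% of all promoters. A match or its absence describes the letters of these windows only.

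Igfbp5 (chromosome 1, 72857932 to 72874884, minus strand) encodes a secreted binding protein that also attaches to extracellular matrix. It was at 6.58, 6.95, 6.55 and 7.26 CPM in controls 1 to 4, from 83 to 92 reads. In mutants 6, 7 and 8 it was at 18.3, 27.0 and 24.3 CPM, from 234 to 311 reads. The controls lay within a narrow band and every mutant lay far above the highest control. Igfbp5 rose by a log2 fold change of 1.76 (SE 0.17), with an edgeR adjusted p of 7.76e-05. Igfbp5 was called in all 17 alternatives, at log2 fold changes from 1.64 to 1.91.

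Igfbp3 (chromosome 11, 7206086 to 7213923, minus strand) encodes the main carrier of IGFs in serum. It was at 24.3, 15.7, 16.4 and 14.6 CPM in controls 1 to 4 and at 43.6, 49.4 and 55.9 CPM in mutants 6, 7 and 8. Control 1 stood above the other controls and below every mutant. Igfbp3 rose by a log2 fold change of 1.48 (SE 0.18), with an edgeR adjusted p of 0.000265. It was called in all 17 alternatives, at log2 fold changes from 1.31 to 1.67.

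The gene next to Igfbp5 on chromosome 1 is Igfbp2, 5.46 kb away on the opposite strand, whose protein is abundant in astrocytes and in developing brain. Igfbp2 was at 3.09, 3.10, 3.58 and 2.82 CPM in controls 1 to 4, from 35 to 47 reads, and at 0.782, 1.74 and 2.82 CPM in mutants 6, 7 and 8, from 10 to 36 reads. Mutant 8 lay just under the lowest control and mutant 6 far below it. A log2 fold change of -0.82 (SE 0.37) did not pass (edgeR adjusted p 0.213), and it ran from -1.33 without mutant 8 to -0.46 without mutant 6. In the same way Igfbp3 lies 3.54 kb from Igfbp1 on chromosome 11, which had 2 to 9 reads per library and was not tested.

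Igfbp6, whose protein prefers IGF2, was at 2.06, 1.28, 1.90 and 2.34 CPM in controls 1 to 4 and at 1.64 and 2.35 CPM in mutants 6 and 8, with mutant 7 lowest at 11 reads. With 11 to 30 reads per library the groups overlapped (log2 fold change -0.17, SE 0.36, edgeR adjusted p 0.846). The further binding protein genes Igfbp4 and Igfbp7 were not called either. Igfbp4 averaged 20.3 ± 4.93 CPM over the controls (SD, n = 4) and 24.4 ± 1.06 CPM over the mutants (SD, n = 3), which differ by 0.27 on the log2 scale (SE 0.18, adjusted p 0.417 by edgeR). Without control 1 Igfbp4 was called higher (0.45, edgeR adjusted p 0.0455). Igfbp4 (chromosome 11, 99041244 to 99054392) lies near Thra (98740638 to 98769006 on the same chromosome). Whether this position has a part in its level was not tested. Igfbp7 averaged 13.0 ± 4.66 CPM over the controls (SD, n = 4) and 10.8 ± 2.19 CPM over the mutants (SD, n = 3), which differ by -0.27 on the log2 scale (SE 0.27, adjusted p 0.633 by edgeR), which was 0.12 without controls 1 and 4.

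Levels of different genes were compared per kilobase of exons. The RNA was nuclear, and whether reads in introns were counted is not given. Differences in level between genes may therefore depend on genomic length, which was not tested. Over 7 binding protein genes (Igfbp1 to Igfbp7), the summed level was 34.6, 23.5, 20.8 and 24.4 CPM per kilobase in controls 1 to 4. In mutants 6, 7 and 8 it was 34.7, 34.4 and 41.2 CPM per kilobase. Control 1 reached the level of mutants 6 and 7, and 45.1% of its sum came from Igfbp7. Igfbp3 and Igfbp5 together made up 24.0% to 30.5% of the sum in controls and 48.9% to 58.9% in mutants. Igfbp7 had the largest share in every control, from 30.0% to 45.1%, and Igfbp3 had the largest share in every mutant, from 40.1% to 45.9%. The ratio of Igfbp5 to Igfbp3 per kilobase was 0.141 to 0.259 in controls and 0.219 to 0.285 in mutants and overlapped. These shares carry no test of their own. Markers of endothelial, mural and other cells were also counted in these libraries, and the part of such cells in the sums and shares was not tested.

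**Figure D3:**
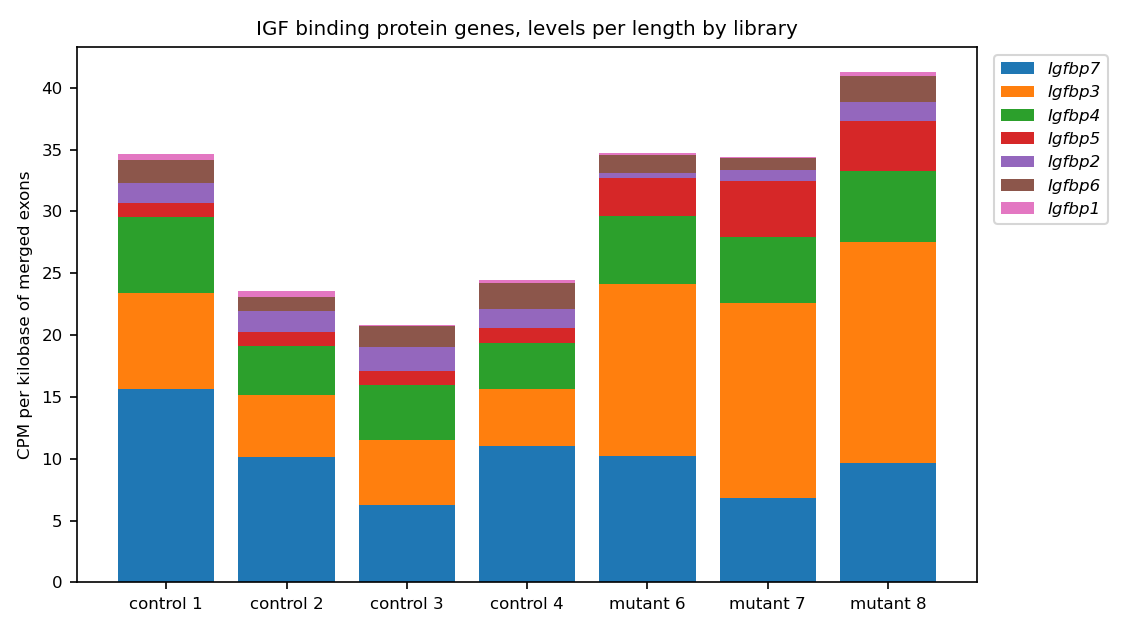
Level per kilobase of merged exons (y axis, CPM per kilobase) of 7 IGF binding protein genes, stacked for each of the 4 control and 3 mutant libraries. The Igfbp3 and Igfbp5 segments make up 24.0% to 30.5% of each control bar and 48.9% to 58.9% of each mutant bar.

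The order of levels within the axis was described in the same unit, per group, with the same limit from genomic length. In controls, per kilobase of exons, Igf1 (11.3 ± 2.497 CPM per kilobase, SD, n = 4) and Insr (11.1 ± 2.31) came first, followed by Irs2 (9.10 ± 1.09), Igf1r (7.02 ± 3.01), Igfbp3 (5.67 ± 1.41), Irs1 (4.07 ± 1.38) and Igf2r (2.80 ± 0.420). Neighbours in this order overlapped in their ranges down to Igf2r. Below it came Igfbp6 (1.71 ± 0.401), Igfbp2 (1.70 ± 0.170) and, apart from Igfbp2, Igfbp5 (1.14 ± 0.0561) as the lowest gene. In mutants Igfbp3 came first (15.9 ± 1.97 CPM per kilobase, SD, n = 3) without overlap with Insr (9.21 ± 0.765), the next gene. Igfbp5 was the sixth gene in mutants at 3.86 ± 0.740 and Irs1 the eighth at 2.21 ± 0.226, while Igfbp2 was lowest at 0.964 ± 0.551.

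Further genes of the pathway were read off the same test from 4 lists written from general knowledge, which also hold the antisense genes Airn and Igf1os. Of 80 genes 71 were tested, and 6 were called, 4 higher and 2 lower in mutants, which is 8.45% beside 9.42% of all tested genes. Their median log2 fold change was 0.00. The ligands, binding proteins and proteases held 2 called genes of 9 tested, the adaptors and brakes at the receptor 2 of 14, the PI3K, AKT, mTOR and FOXO genes 2 of 31, and the RAS and ERK genes 0 of 17. In the RAS and ERK list 2 genes had an unadjusted p under 0.05 in edgeR, and DESeq2 called 2 genes, Map2k1 (0.33, adjusted p 0.0483) and Nras (0.37, 0.0478), higher in mutants. Over all genes DESeq2 called 1989, where edgeR called 1549.

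**Figure D4:**
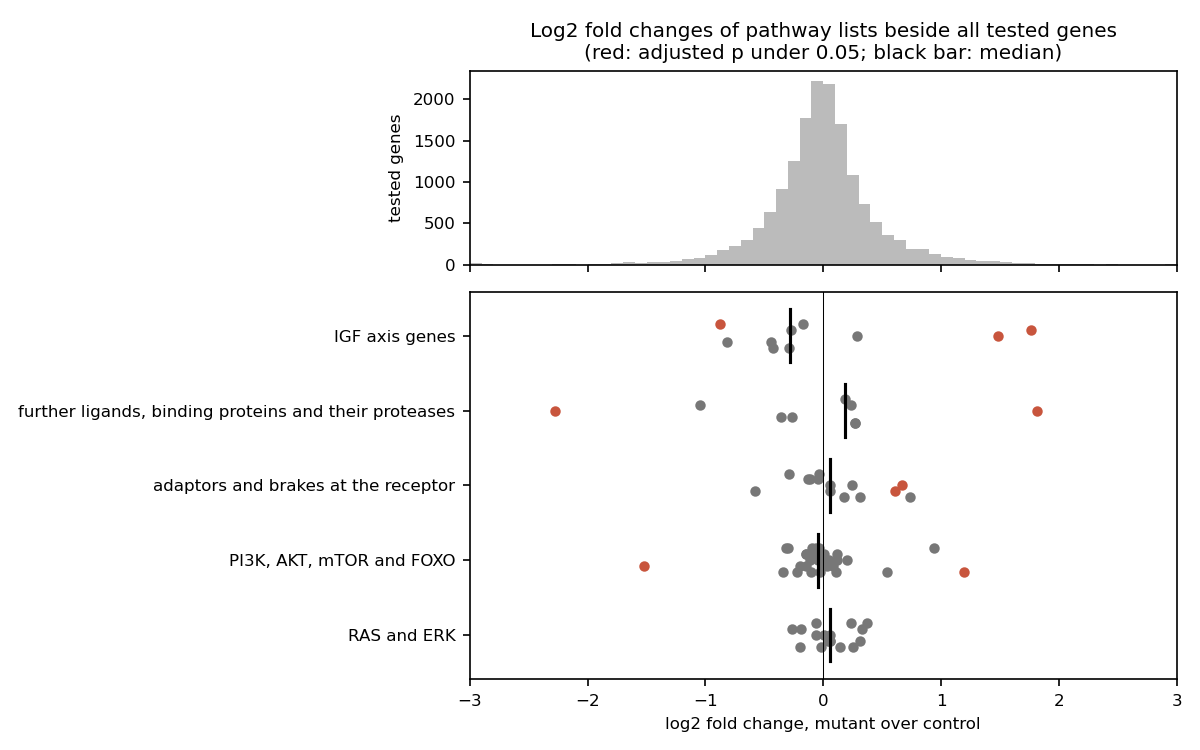
Log2 fold changes of mutant over control (x axis) for all 16448 tested genes (histogram, values beyond 3 drawn at 3) and, below, for the tested genes of the IGF axis and of 4 further pathway lists (points, called genes in red, medians as black bars). The further lists have medians between -0.04 and 0.18, and 6 of their 71 genes are called.

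The proteins of 4 of these called genes act at the ligand or the receptor. Stc2, whose protein stanniocalcin-2 inhibits the PAPP-A proteases that release IGF from binding proteins, was at 5.79, 5.14, 4.95 and 3.71 CPM in controls 1 to 4 and at 1.02, 0.551 and 1.41 CPM in mutants 6, 7 and 8. The groups did not overlap, and the fall by 2.27 on the log2 scale (SE 0.33, edgeR adjusted p 0.00119) rested on 6 to 18 reads in mutants and 46 to 73 in controls. The protease genes Pappa (0.18) and Pappa2 (0.27) were not called.

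Igfbpl1, a gene similar in sequence to the binding protein genes, was at 1.03, 0.605, 0.304 and 0.323 CPM in controls 1 to 4 and at 1.80, 2.29 and 1.95 CPM in mutants 6, 7 and 8. All mutants lay above all controls, and the log2 fold change was 1.81 (SE 0.43, edgeR adjusted p 0.0209), from 4 to 25 reads per library. Its call was lost in 5 of the 7 fits without 1 library: control 2, control 3, mutant 6, mutant 7 or mutant 8, where the log2 fold change ran from 1.61 to 1.89 and the edgeR adjusted p from 0.0508 to 0.0993. It was also lost without control 4 and mutant 8 (1.65, edgeR adjusted p 0.0746).

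Socs2, a feedback inhibitor of growth hormone signalling, averaged 32.6 ± 3.36 CPM over the controls (SD, n = 4) and 51.8 ± 3.83 CPM over the mutants (SD, n = 3). It rose by 0.66 on the log2 scale (SE 0.12, edgeR adjusted p 0.00440). Grb14, an adaptor that inhibits the insulin receptor, averaged 34.3 ± 5.24 CPM over the controls (SD, n = 4) and 52.3 ± 5.05 CPM over the mutants (SD, n = 3). It rose by 0.61 (SE 0.14, edgeR adjusted p 0.0156), and its call was lost without control 3 (0.55, adjusted p 0.0567), mutant 6 (0.56, 0.0867) or mutant 7 (0.58, 0.0848). Its paralogue Grb10 was not called (0.31, SE 0.16, edgeR adjusted p 0.289).

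The remaining called genes lie downstream. Deptor, which encodes an inhibitory partner of mTOR, was at 22.8, 34.9, 30.4 and 43.1 CPM in controls 1 to 4 and at 13.4, 8.72 and 11.96 CPM in mutants 6, 7 and 8. Every mutant was below every control, and the gene fell by 1.53 on the log2 scale (SE 0.22, edgeR adjusted p 0.00107). Foxo6, a forkhead factor of the family that AKT restrains, was at 4.36, 3.85, 4.64 and 4.27 CPM in controls 1 to 4 and at 10.01, 11.0 and 8.52 CPM in mutants 6, 7 and 8. It rose by 1.20 (SE 0.19, edgeR adjusted p 0.00215), again without overlap. Foxo1 (-0.14) and Foxo3 (-0.31) were not called, nor were Mtor (-0.02), Rptor (-0.07), Rictor (-0.04) or the 3 Akt genes, from -0.30 to 0.00.

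In RNA pooled over nuclei, fewer cells of a type and less RNA per cell cannot be told apart. Some markers of the classes of GABAergic neurons differed between the groups. Of 6 parvalbumin neuron markers 4 were called lower (Pvalb, Syt2, Kcnc1 and Kcnab3) and 0 higher. Their summed level was 797 to 975 CPM in controls and 353 to 428 CPM in mutants. Kcnc1 was the largest part of this sum, with means of 518 CPM in controls and 195 CPM in mutants. Pvalb averaged 41.0 CPM in controls and 1.81 CPM in mutants, while Tac1 averaged 105 CPM in both groups. Tac1 and Pthlh were not called. Of 7 somatostatin neuron markers 3 were called higher (Sst, Calb1 and Crhbp), with a sum of 853 to 879 CPM in controls and 1181 to 1457 CPM in mutants. VIP neuron markers moved both ways, 3 higher and 1 lower of 7, and their sums overlapped at 371 to 570.1 CPM in controls and 549 to 577 CPM in mutants. LAMP5 neuron markers had 1 higher (Sv2c) and 2 lower (Cplx3 and Npy) of 6, with sums of 1060 to 1212 CPM in controls and 1099 to 1386 CPM in mutants. Reln, which was not called, was the largest part of these sums, with means of 670 CPM in controls and 901 CPM in mutants. The part of these shifts in the values of Igfbp3, Igfbp5 and Irs1 was not tested.

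Markers of cells other than GABAergic neurons were read in the same way. Microglia, a known source of Igf1, had 0 of 7 tested markers called by edgeR and 2 with an unadjusted p under 0.05, while DESeq2 called 1, Csf1r, higher (0.61, adjusted p 0.0190). They had a summed level of 16.2 to 22.5 CPM in controls and 22.2 to 27.995 CPM in mutants, and P2ry12 was listed at 0. In the astrocyte list Sox9 (1.37) was called higher and Slc4a4 (-0.54) lower of 7 tested genes, with sums of 354 to 510.5 CPM in controls and 304 to 347 CPM in mutants, and Gfap was listed at 0. Endothelial markers were called in 0 of 8 genes by edgeR or DESeq2, with 0 at an unadjusted p under 0.05 in edgeR, at 51.3 to 117 CPM in controls and 52.2 to 78.6 CPM in mutants. All 8 endothelial markers had a log2 fold change below 0, with a median of -0.34 beside -0.01 over all tested genes. Mural and meningeal markers, cells that express several Igfbp genes, were called in 0 of 8 tested genes by either tool, with 1 at an unadjusted p under 0.05 in edgeR, at 33.2 to 86.8 CPM in controls and 34.98 to 51.3 CPM in mutants. Oligodendrocyte lineage markers had 1 higher of 10, glutamatergic markers 0 of 9 (0 with DESeq2, and 0 at an unadjusted p under 0.05 in edgeR) and striatal markers 1 higher of 6. The sums of glutamatergic markers were 245 to 346 CPM in controls and 224 to 281 CPM in mutants, and those of the oligodendrocyte lineage were 166 to 208 CPM and 181 to 218 CPM. The sums of striatal markers were 85.4 to 143 CPM in controls and 137.5 to 169 CPM in mutants, and the part of these cells in the results was not tested.

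The genes with the pattern most like that of Igfbp5, which had the lowest adjusted p of the 10 IGF axis genes, were sought over the 7 libraries by the root mean square difference of mean-centred log2 CPM. They were Dgkk (0.16), Tmie (0.19) and the lincRNA CT486005.1 (0.19), in log2 units. Their log2 fold changes were 2.20, 1.54 and 1.90, and Dgkk averaged 0.311 ± 0.0569 CPM over the controls (SD, n = 4) and 1.47 ± 0.335 CPM over the mutants (SD, n = 3). This likeness follows the difference between the groups and is a description.

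**Figure D5:**
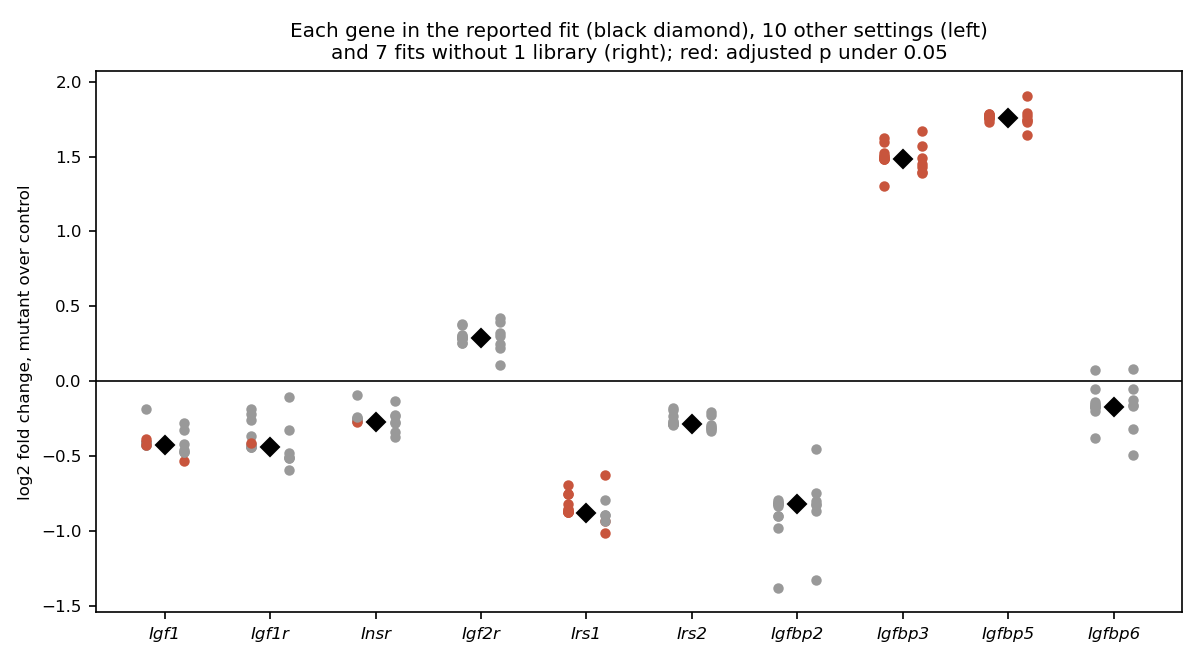
Log2 fold change of mutant over control (y axis) of each IGF axis gene in the reported fit (black diamonds), in 10 other settings (left of each diamond) and in 7 fits without 1 library (right), with adjusted p under 0.05 in red. Igfbp3 and Igfbp5 are red throughout, Irs1 turns grey in 4 of the 7 fits without 1 library, and Igfbp6 lies on both sides of 0.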

How the data were processed

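The deposited values were whole-number counts of reads per gene, 1 table per library, with no normalization that the labels record. Per the labels' protocols, SMART-Seq v4 was the kit for cDNA and Nextera XT that for libraries. Neither marks single molecules, so the counts are of reads and not of molecules. Bowtie2 2.5.3 and the build mm10 (GRCm38) are named in the submitters' processing notes. The counting program, its settings and its use of strand are not given in the sources used here. All 55450 gene identifiers matched GENCODE M21, which gave symbols, coordinates and merged exon lengths.

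The test was run with edgeR 4.0.16 under R 4.3.3. Genes passed filterByExpr given the groups (at least 10 reads, 15 in total), followed by TMM scaling, and a robust quasi-likelihood fit of 4 controls and 3 mutants with the group as the only term. Benjamini-Hochberg adjustment ran over all 16448 tested genes, two-sided, and genes below 0.05 count as called. The SE was the log2 fold change divided by the square root of F. Alternatives used DESeq2 1.42.0, limma 3.58.1, other scalings and filters, an offset per library from a lowess trend (span 0.3) on genomic length, and fits without libraries. The ratio of control 4 to control 1 used a pseudocount of 0.5 CPM. The fits were tested on simulated data. The design written at the start allowed for the repeated table of the mutant labelled 10.

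Named genes were the 10 IGF axis genes, every called gene of the further pathway lists, Igf2, Igfbp4, Igfbp7, Igfbpl1, Airn, genes that overlap a member, Thra, and the 3 genes most like the member with the lowest adjusted p. Other genes were named after their values were seen. The members and lists were chosen with earlier results of these data known. Of the cell type markers, 2 are not reported here, and the counts and sums of their lists were made without them.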

Additional observations from a re-analysis of the deposited data

Results flagged for a closer look

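The controls were searched for a single library that stands apart, which 3 mutants would be too few for. In 3 of the 32 values examined the distance of 1 control from its nearest neighbour, as a share of the spread of all 4, was above Dixon's 95% limit. Chance alone flags about 1 in 20, which is 1.6 of 32.

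Control 4 had a ratio of Igf1r to Insr per kilobase of exons of 0.807, while controls 1 to 3 had 0.543 to 0.560, and the distance was 0.936 of the spread. In control 1 Igfbp5 made up 3.17% of the summed level of 7 binding protein genes, while it made up 4.92% to 5.24% elsewhere among the controls, a distance of 0.845. Igfbp7 made up 30.0% of that sum in control 3 and 43.0% to 45.1% in controls 1, 2 and 4, a distance of 0.862.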

How the results depend on the processing

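The 3 counts of called genes and the fold changes of the 10 IGF axis genes, Thra, Airn, Igfbp4, Igfbp7 and the 6 called further pathway genes were recomputed under 17 alternatives, of which 7 left out 1 library. Shares, ratios, orders of level and marker lists were not, except for calls of the lists by DESeq2. Igfbp3, Igfbp5, Stc2, Socs2, Deptor and Foxo6 kept their call and direction in all of them, and Igf2r, Irs2 and Igfbp2 were not called in any. Igf1 was called lower with sample quality weights (-0.41), the genomic length offset (-0.43) and without controls 1 and 4 (-0.39), and ran from -0.53 to -0.28 without single libraries. With the length offset Igf1r (-0.41) and Insr (-0.27) were called lower too, so that 6 of 10 IGF axis genes were called. Without single libraries this count was 2 to 4, and Irs1, at -1.02 to -0.63, lost its call in 4 of 7 such fits. Igfbp6 was at 0.079 without mutant 7 and at 0.076 without controls 1 and 4 (range without single libraries -0.49 to 0.079), and Igfbp7 was at 0.090 with quality weights and 0.12 without controls 1 and 4, all uncalled. Further pathway genes called numbered 11 with DESeq2, 14 with quality weights, 14 with the length offset, 12 without controls 1 and 4, and 4 to 12 without single libraries. The count over all genes was 1989 with DESeq2, 3147 with quality weights and 2753 with the length offset. It was 2778 without controls 1 and 4, and 734 to 2347 without single libraries. The cause was not tested. No paired analysis was made because the labels name no litter or batch by which controls and mutants could be paired. Igfbp2, Igfbp6, Igfbpl1 and Stc2 rest on fewer than 100 reads in every library.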
